A study of Mus musculus with 9 samples.

Results

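The signals of 10 transcription factor genes that steer granulocyte-macrophage progenitors (GMPs) towards granulocytes or towards monocytes and dendritic cells were followed across 3 Dicer1 genotypes. They were taken as every probe set (a group of short probes on the array that together read 1 transcript) that the platform annotation assigns to Cebpa, Cebpb, Cebpd, Gfi1, Spi1, Irf8, Klf4, Id2, Runx1 or Myb alone. This gave 23 of the 45101 probe sets and 10 of 18193 genes. Of the 23 probe sets, 20 passed a filter on dim signals and 3 did not, the 3 being 1 of Cebpb and 2 of Id2. All 10 genes had at least 1 probe set above the filter, and the brightest stood for the gene.

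RNA came from EYFP-positive GMPs sorted from the bone marrow of transplanted mice, with 3 arrays for each of 3 genotypes, wild type, heterozygous for the deletion (Dicer -/wt) and null (Dicer fl/fl). Donor cells were fetal liver cells of embryonic day 13.5, and the recipients were C57BL/6 mice of 6 to 8 weeks irradiated with 8.5 Gy and analysed 6 to 10 weeks later. All 9 samples carry the same donor background in the labels, Cebpa-Cre;R26-LSL-Eyfp with floxed Dicer1 alleles (Dicer1wt/fl/Dicer1fl/fl), so the controls carry the Cre and the reporter by label too. Dicer1 encodes the enzyme that cuts microRNA precursors. Cre is driven by Cebpa, 1 of the 10 genes, so deletion and EYFP mark cells in which Cebpa is or was active, and the labels do not say how Cre was placed under its control. A fetal liver was typically shared between recipients, and nothing says which arrays share a donor, so a p-value here measures only how these samples vary, which may be technical.

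C/EBP proteins, encoded by Cebpa, Cebpb and Cebpd, and the repressor GFI1 are the classical drivers of granulocyte fate, with C/EBPalpha needed to form GMPs at all and C/EBPbeta taking over in emergencies. PU.1, encoded by Spi1, favours monocytes and macrophages where it is abundant. IRF8 and KLF4 direct monocyte and dendritic fate and IRF8 restrains neutrophil production, while ID2, which blocks E proteins instead of binding DNA, is needed for several dendritic subsets. RUNX1 and MYB act earlier, in stem cells and dividing progenitors. Cebpb and Cebpd also serve macrophages and Spi1 also serves granulocytes, so the split is a convention.

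Several microRNAs are tied to these factors in the literature, and their mature sequences from RefSeq (GRCm38.p6) are shown because Dicer makes them. Seeds, bases 2 to 8, which pair with target transcripts, are in capitals. MiR-155-5p is described as targeting Cebpb and Spi1 and the miR-17 family as targeting Runx1. The gene of miR-223-3p is described as activated by C/EBPalpha and PU.1, and those of miR-21a-5p and miR-196b-5p as repressed by GFI1. MiR-17-5p, miR-20a-5p and miR-106a-5p share 1 seed, AAAGUGC. MicroRNAs were not measured on these arrays.
miR-155-5p: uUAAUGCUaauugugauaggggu
miR-17-5p: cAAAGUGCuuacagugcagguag
miR-20a-5p: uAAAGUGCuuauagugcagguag
miR-106a-5p: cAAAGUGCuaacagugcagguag
miR-223-3p: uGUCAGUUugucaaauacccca
miR-21a-5p: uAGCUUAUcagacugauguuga
miR-196b-5p: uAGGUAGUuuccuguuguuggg

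Every array had a trimmed mean signal of 100, a value set by scaling, so it does not show that the arrays were comparable. Their medians were 12.4 to 16.1. Dicer1 was lowest in null cells, with a mean signal of 105 ± 9.46 (SD, n = 3) against 185 ± 16.1 in heterozygous and 232 ± 11.1 in wild-type cells. All samples were sorted as GMPs, so their identity could not be tested, and 8 GMP markers were only compared between genotypes. These markers were Kit, Cd34, Mpo, Elane, Ctsg, Prtn3, Ms4a3 and Fcgr3, all above the filter. Their summed signal was 27870 to 31260 on wild-type, 27740 to 32820 on heterozygous and 28250 to 30180 on null arrays. It is carried by the bright Mpo, Ctsg, Ms4a3 and Prtn3. Of the 8, limma called 1 in null against wild type, Fcgr3, higher in null cells (adjusted p = 0.00959), which is 12.5% beside 15.7% of all genes. Fcgr3 averaged 1557 in null, 1406 in heterozygous and 1204 in wild-type cells. In the other comparisons limma called 0 of the 8. Wild-type replicate 2 stood apart, with an Xist signal of 2610 against 16.4 to 30.2 elsewhere and an Eif2s3y signal of 1.12 against 622 to 859. The labels call every sample female, which only this array matches, as the Y-linked Eif2s3y was high on every other array. Within wild type these sex-linked signals therefore differed between replicates, and within the other genotypes they did not. The summed erythroid markers (Klf1, Epor, Car1 and Car2) reached 1458 in wild type, with Car1 at 631 on wild-type replicate 2 and at 81.7 and 74.8 on replicates 1 and 3.

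In null GMPs Gfi1 and Id2 rose and Irf8 and Klf4 fell, while the 3 C/EBP genes, Spi1, Runx1 and Myb did not pass the test. Against wild type, 2 of the 10 genes rose and 2 fell, where limma called 15.7% of all 12347 genes tested, 7.6% upward and 8.09% downward. Against heterozygous cells 2 were higher and 2 lower, beside 14.3% of all genes, 6.84% upward and 7.49% downward. In heterozygous against wild-type cells limma called 0 of the 10, beside 1.39% of all genes, 0.697% in each direction. The median change of the 10 genes on the log2(signal + 12) scale was 0.01 in null against wild type and -0.23 in null against heterozygous cells, beside -0.04 and -0.03 over all genes tested. In sorted bulk samples, a lower signal from fewer cells of a kind and from less RNA per cell cannot be told apart. The null samples serve in 2 of these comparisons and the wild-type samples in 2, so the comparisons are not independent of each other.

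**Figure D1:**
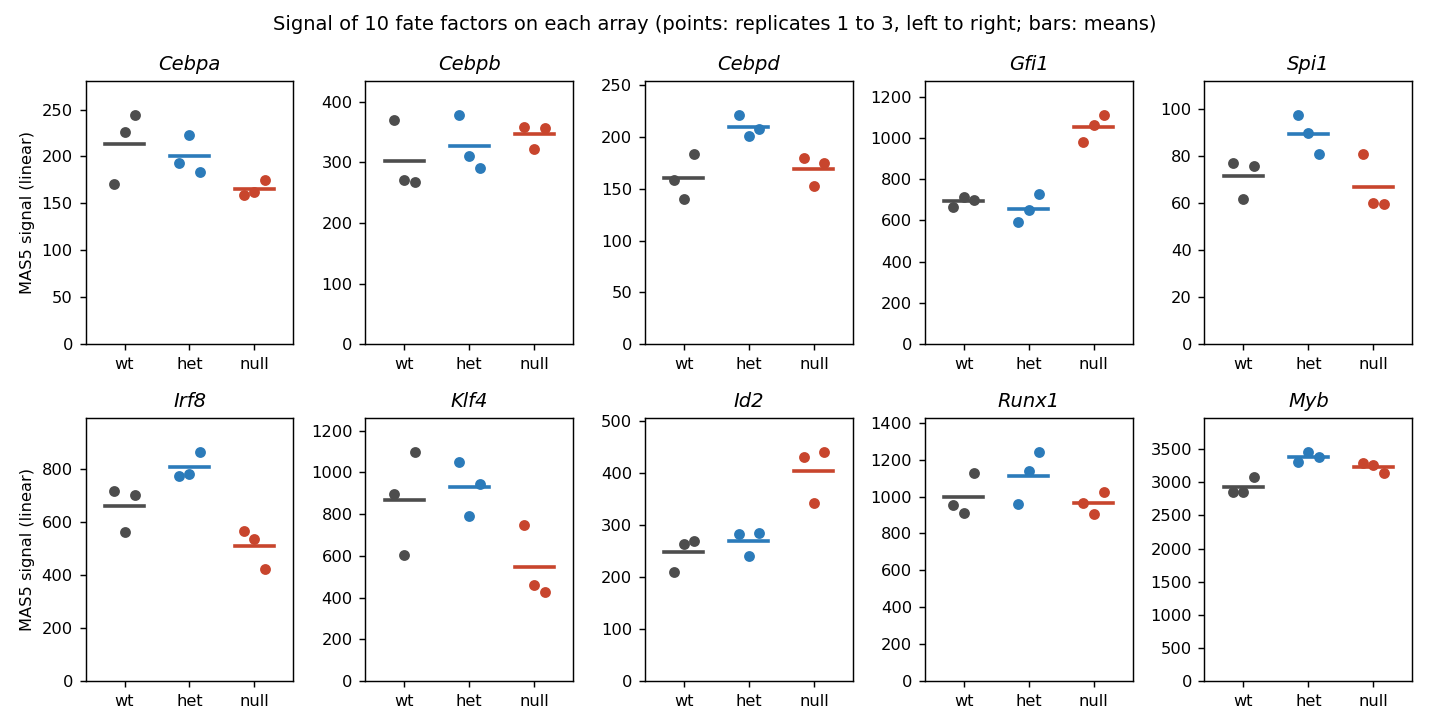
Linear MAS5 signal of each of the 10 genes (1 panel each, brightest probe set) on the 9 arrays, with points for replicates and bars for group means. The 3 null points of Gfi1 (981 to 1109) and Id2 (343 to 440) lie above all 6 others, and the 3 null points of Irf8 (423 to 566) lie below the 3 heterozygous points (774 to 866) and overlap the wild-type points.

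Among the granulocytic factors, Gfi1 was the gene that changed. Its signal was 981, 1064 and 1109 on the null arrays, 592, 650 and 727 on the heterozygous arrays and 666, 712 and 700 on the wild-type arrays. Every null array was above every other array, while heterozygous and wild-type values overlapped. The mean of 1051 ± 65 in null cells (SD, n = 3) was 1.52-fold that of wild type (692 ± 23.9) and 1.6-fold that of heterozygous cells (656 ± 67.9). On the log2(signal + 12) scale Gfi1 rose by 0.59 against wild type (SE 0.09, limma adjusted p = 0.000529) and by 0.67 against heterozygous cells (SE 0.09, adjusted p = 0.000235). Both calls held under each of the 21 alternative settings tried. Heterozygous against wild type gave -0.08 with a 95% interval of -0.27 to 0.11. Gfi1 is a zinc finger repressor that blocks monocytic genes in neutrophil precursors.

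Cebpa, the founding factor of the GMP stage, read 159, 162 and 175 in null, 193, 223 and 184 in heterozygous and 171, 226 and 244 in wild-type cells. The null values lay below all heterozygous values and overlapped wild type through its replicate 1. The difference in null against wild type was -0.33 (95% interval -0.60 to -0.06, limma adjusted p = 0.0926), which did not pass. Without wild-type replicate 1 it was -0.48 with an adjusted p of 0.0188, which did pass. Against heterozygous cells it was -0.25 (95% interval -0.52 to 0.02, adjusted p = 0.214).

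Cebpb, which sustains granulocyte output under infection, ranged from 322 to 359 in null, 291 to 377 in heterozygous and 267 to 369 in wild-type cells, and the 3 groups overlapped. Its difference in null against wild type was 0.20 (95% interval -0.07 to 0.48, limma adjusted p = 0.331). The dim second probe set of Cebpb read 1.32 to 13.2 over the 9 arrays and was not tested. Cebpd, a relative induced in maturing granulocytes and in inflammation, was highest in heterozygous cells, at 221, 201 and 208 against 159, 140 and 184 in wild type and 180, 153 and 175 in null cells. All 3 heterozygous values lay above all 6 others. The difference in heterozygous against wild type was 0.37 (95% interval 0.12 to 0.61, limma adjusted p = 0.16). Null against heterozygous gave -0.29 (adjusted p = 0.106). Neither passed. A dimmer probe set of Cebpd did not show this order, with means of 94.2 ± 6.68 in null, 101 ± 7.35 in heterozygous and 113 ± 9.62 in wild-type cells (SD, n = 3).

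Among the monocytic and dendritic factors, Irf8 was highest in heterozygous and lowest in null cells. Its brighter probe set read 566, 538 and 423 on null, 774, 784 and 866 on heterozygous and 718, 563 and 704 on wild-type arrays. Null and heterozygous values were fully separate, whereas null replicate 1 lay just above wild-type replicate 2. Irf8 fell by 0.66 in null against heterozygous cells (SE 0.12, limma adjusted p = 0.00217), a call that held under each of 21 alternative settings. The other probe set of Irf8 gave a larger difference in the same direction, from 440, 369 and 493 in heterozygous to 212, 172 and 157 in null cells, or -1.21 (SE 0.21, adjusted p = 0.0027 over 22365 probe sets). Heterozygous against wild type gave 0.29 (95% interval 0.04 to 0.54, adjusted p = 0.3), with all 3 heterozygous values above the wild-type values, and did not pass.

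The difference of Irf8 between null and wild-type cells was smaller, -0.37 (SE 0.12, limma adjusted p = 0.0436), and rested on few arrays, passing in 10 of 21 alternative settings. It missed the threshold without null replicate 2 (adjusted p = 0.0542), null replicate 3 (-0.25, adjusted p = 0.185), wild-type replicate 1 (0.145) or wild-type replicate 3 (0.139). Leaving out a heterozygous array, which enters through the shared estimate of the spread, also raised the adjusted p above 0.05 (0.0537, 0.0635 and 0.0519 for replicates 1, 2 and 3). Without wild-type replicate 2 it was -0.48 (adjusted p = 0.0143). Tested as a probe set among all probe sets, it gave an adjusted p of 0.0538, and the other probe set gave -0.58 with 0.0902.

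Klf4, a zinc finger factor that promotes monocyte differentiation, was also lowest in null cells and varied more between arrays. It read 747, 462 and 425 on null, 1051, 791 and 944 on heterozygous and 895, 605 and 1098 on wild-type arrays. The null values were all below the heterozygous values, and null replicate 1 was above wild-type replicate 2. Klf4 fell by 0.79 against heterozygous cells (SE 0.21, limma adjusted p = 0.0211) and by 0.66 against wild type (SE 0.21, adjusted p = 0.046). The first call held in 13 of 21 alternative settings and the second in 8. The first was lost without null replicates 2 or 3 (adjusted p = 0.072 and 0.0904) or heterozygous replicates 1 or 3 (0.0983 and 0.0573). The second was lost without null replicates 2 or 3 (0.137 and 0.172), without wild-type replicates 1 or 3 (0.122 and 0.184) and without any of the heterozygous arrays (0.0568, 0.0564 and 0.059). With its probe sets averaged Klf4 gave -0.44 and -0.34, with adjusted p of 0.295 and 0.409. Without wild-type replicate 2 it was -0.90 with an adjusted p of 0.00725. The dimmer probe set of Klf4 gave -0.08 against heterozygous and -0.03 against wild-type cells (SE 0.26 in both).

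Id2, the inhibitor of E proteins, rose in null cells. It read 432, 343 and 440 on null, 283, 241 and 284 on heterozygous and 209, 263 and 270 on wild-type arrays. Every null value was above all 6 others. The mean of 405 ± 54 (SD, n = 3) was 1.64-fold that of wild type and 1.5-fold that of heterozygous cells. The change was 0.69 against wild type (SE 0.12, limma adjusted p = 0.00201) and 0.56 against heterozygous cells (SE 0.12, adjusted p = 0.00778). The remaining probe sets of Id2 had signals of 0.502 to 10.6 on all 9 arrays, and averaging them with the bright one gave 0.22 and 0.16 with adjusted p of 0.239 and 0.443. Id2 thus rose while Irf8 and Klf4, placed with it by role, fell.

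Spi1 read 80.7, 60.2 and 59.7 on null, 97.3, 89.8 and 80.8 on heterozygous and 77.0, 61.6 and 75.8 on wild-type arrays. Null replicate 1 was just below the lowest heterozygous value, so these groups were separate, but null and wild type overlapped. The difference was -0.37 in null against heterozygous (95% interval -0.67 to -0.07, limma adjusted p = 0.102) and -0.09 in null against wild type (95% interval -0.39 to 0.22). Without null replicate 1 the former was -0.49 with an adjusted p of 0.048, which passed.

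**Figure D2:**
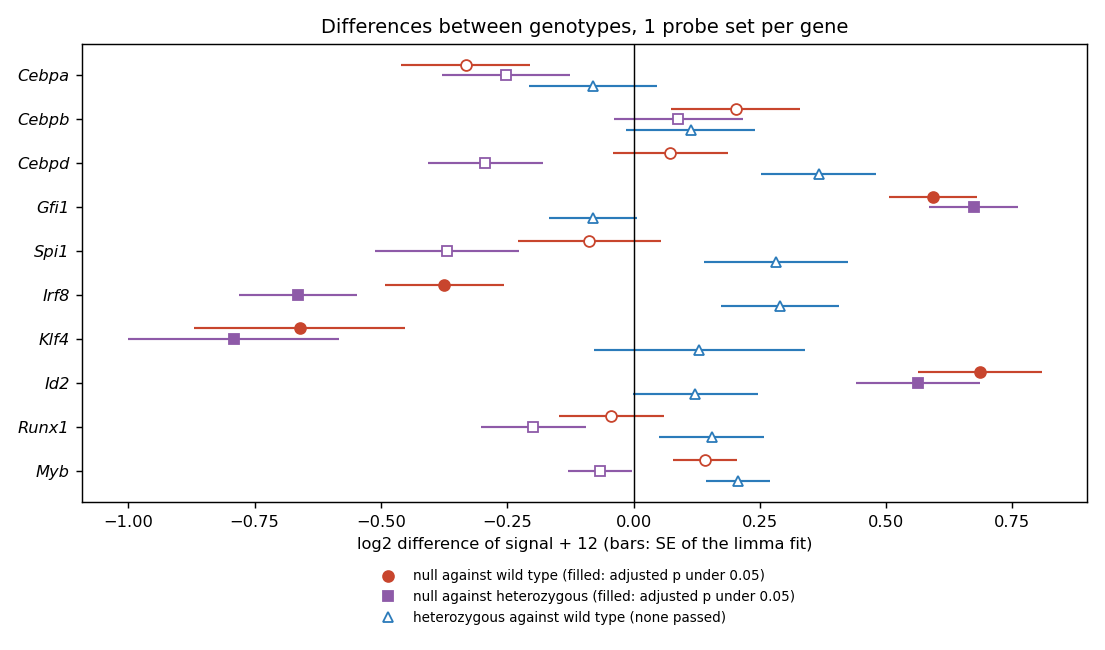
Log2 difference of signal + 12 for the 10 genes in each comparison, with the SE of the limma fit as bars and filled symbols for an adjusted p under 0.05. Gfi1 and Id2 lie to the right in both comparisons of null cells (0.56 to 0.69), Irf8 and Klf4 to the left (-0.79 to -0.37), and no heterozygous against wild-type symbol is filled.

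The progenitor factors differed little. Runx1, the core-binding factor needed to make blood stem cells, had means of 965 ± 59.7 in null, 1113 ± 143 in heterozygous and 997 ± 115 in wild-type cells (SD, n = 3) on its brightest probe set, and the groups overlapped. Its difference in null against wild type was -0.04 (95% interval -0.27 to 0.18). Runx1 had 6 probe sets, all above the filter, and limma called 0 of them in any comparison over all probe sets. One of them, at 200, 209 and 208 in heterozygous against 126, 134 and 190 in wild-type and 161, 153 and 160 in null cells, separated heterozygous cells from the rest with a difference of 0.45 and an adjusted p of 0.151 against wild type.

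Myb, which keeps progenitors dividing and is a described target of miR-150, read 3286, 3267 and 3140 in null, 3310, 3457 and 3382 in heterozygous and 2854, 2851 and 3085 in wild-type cells. The 3 groups did not overlap, with heterozygous highest and wild type lowest. The differences were small, 0.14 in null against wild type (95% interval 0.01 to 0.28, limma adjusted p = 0.155) and 0.21 in heterozygous against wild type (95% interval 0.07 to 0.34, adjusted p = 0.15). On the other 2 probe sets of Myb the groups overlapped in null against wild type, with differences of 0.23 and 0.10.

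**Figure D3:**
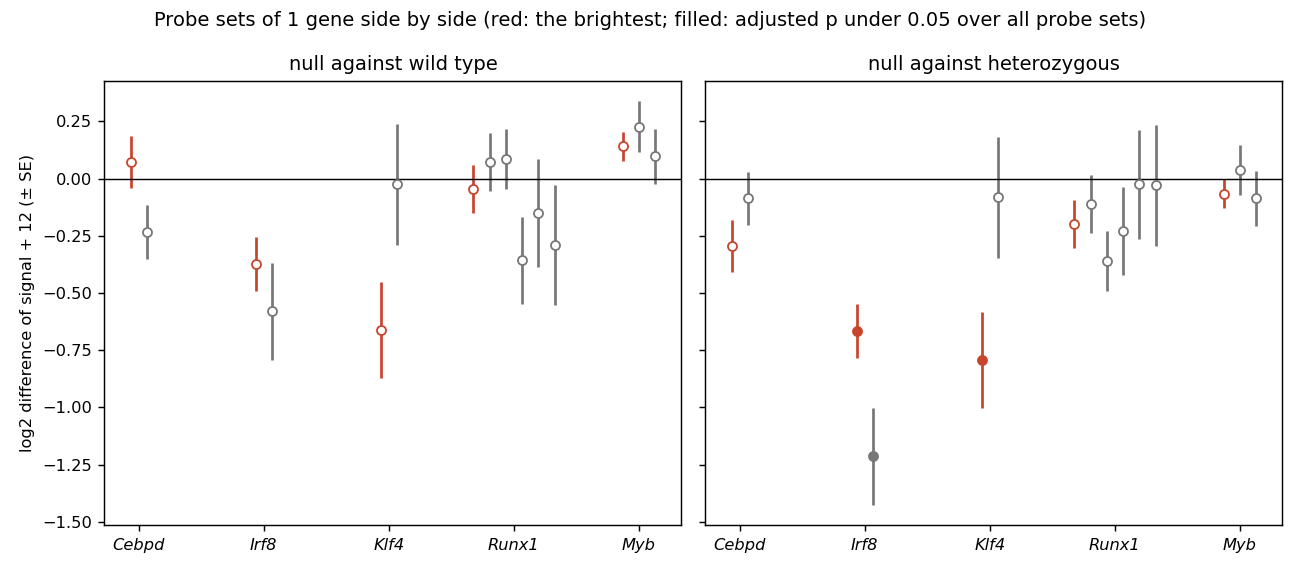
Log2 difference for each tested probe set of the 5 genes with several, red for the brightest and filled where the adjusted p over all probe sets was under 0.05, with SE bars. Both probe sets of Irf8 fell against heterozygous cells (-0.66 and -1.21), while those of Klf4 differed from each other (-0.79 and -0.08).

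Differences between heterozygous and wild-type cells were small. Of the 10 genes, 8 had a difference above 0 against wild type, with a median of 0.14 beside -0.01 over all genes. Heterozygous and wild-type values were fully separate for Cebpd, Spi1, Irf8 and Myb, 4 of the 10, each higher in heterozygous cells. Of all genes, 18.3% were fully separate in either direction. An unadjusted limma p under 0.05 was reached by 3 of the 10, Cebpd, Irf8 and Myb, and by 12.9% of all genes. In null against heterozygous cells 8 of the 10 did not overlap, against 32.7% of all genes, and in null against wild type 3 of 10, against 33%. At the level of probe sets, limma called 2 of the 20 tested in null against wild type, both upward, beside 12.3% of all probe sets (5.91% upward and 6.43% downward). It called 5 of 20 in null against heterozygous, 2 upward and 3 downward, beside 10.8% of all (5.3% and 5.54%). It called 0 in heterozygous against wild type, beside 1.06% of all (0.528% and 0.537%), where 5 of the 20 (25%) had an unadjusted p under 0.05, beside 12% of all probe sets. Groups did not overlap for 4, 10 and 5 of the 20 probe sets in null against wild type, null against heterozygous and heterozygous against wild type, beside 30.5%, 29.7% and 17.6% of all.

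The balance between granulocytic and monocytic factors was described on each array. The log2 difference of Gfi1 minus Irf8, set to a mean of 0 in wild type, was 0.71, 0.90 and 1.30 on the null arrays, -0.45, -0.34 and -0.32 on the heterozygous arrays and -0.18, 0.26 and -0.08 on the wild-type arrays. The 3 groups did not overlap in it. Both genes had already been called in opposite directions in null cells, so this largely restates their values. The mean of Cebpa, Cebpb, Cebpd and Gfi1 minus that of Spi1, Irf8, Klf4 and Id2 was -0.01, 0.29 and 0.44 in null, -0.18, -0.02 and -0.18 in heterozygous and -0.04, 0.15 and -0.11 in wild-type cells, and these overlapped. Cebpa minus Spi1 averaged -0.24 ± 0.26 in null and -0.36 ± 0.15 in heterozygous cells (SD, n = 3), with a wild-type SD of 0.34.

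**Figure D4:**
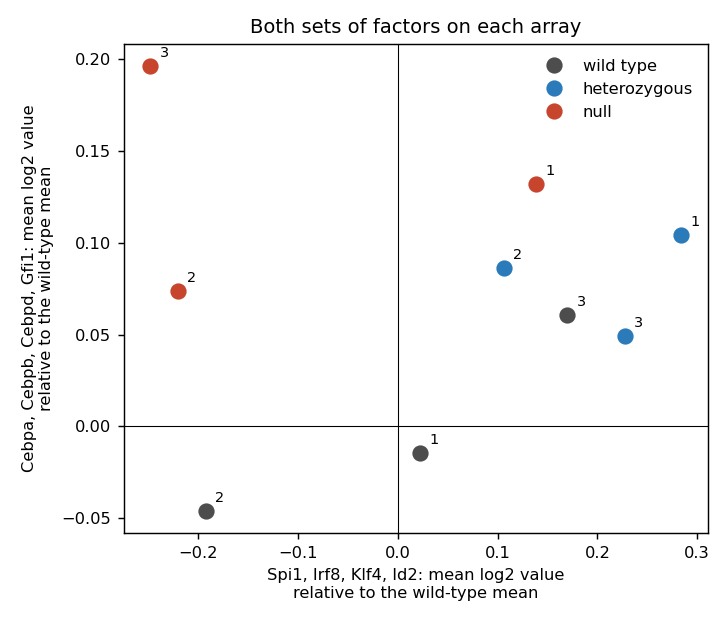
Mean log2 value of the 4 granulocytic genes (vertical) against that of the 4 monocytic and dendritic genes (horizontal) on each array, both relative to the wild-type mean, numbered by replicate. Null replicates 2 and 3 and wild-type replicate 2 lie left of 0 on the horizontal axis (-0.25 to -0.19), and null replicate 1 lies among the heterozygous arrays at 0.14.

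Within the 10 genes, some rose and fell together from array to array. Over the 9 arrays the log2 values of Irf8 and Klf4 correlated at r = 0.87, and their deviations from the group means at 0.74. For Spi1 and Klf4 these values were 0.82 and 0.86. Gfi1 ran opposite to Irf8 at -0.83, but within groups at -0.22, and alongside Id2 at 0.85, but within groups at 0.15. The arrays of a group share a genotype and all share their scaling, so these are descriptions. Wild-type replicate 2 was the lowest wild-type array for Irf8, Klf4 and Spi1, and null replicate 1 the highest null array for the same 3 genes. The same 2 arrays were the highest of their groups for the neutrophil gene S100a9, at 3017 and 3772. The 3 factors were thus low on the first of these arrays and high on the second. For S100a8 null replicate 1 was again the highest null array (4305), but wild-type replicate 3 (3026) was above replicate 2 (2922). The part of neutrophil genes in these values was not tested.

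The genes most like each of the 4 changed factors over the 9 arrays were found by Pearson correlation of log2 values across the genes tested. For Gfi1 they were Alg11 (r = 0.99), an enzyme of glycan assembly, Wipi1 (0.99), an autophagy protein, and Dynlt3 (0.98), a dynein light chain. For Irf8 they were AI839979 (0.98), Kctd14 (0.97) and Klrb1f (0.97), a lectin-like receptor, with changes of -0.99, -0.69 and -1.12 in null against heterozygous cells. Klf4 was followed by Znhit1 (0.97), Unc13d (0.95), which serves granule release, and Lsp1 (0.95), a leukocyte actin-binding protein. Id2 was followed by Tmem41b (0.98), Megf9 (0.97) and Pi4k2b (0.96).

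The upstream sequences of the 4 changed genes are shown because these genes moved in opposite directions. Each is the 250 bases before the most upstream start listed in RefSeq (GRCm38.p6), and 8 of the 10 genes matched that table. Capitals mark matches, on either strand, to short motifs of the factors themselves. These were TTGCNNAA for C/EBP, GAGGAAG for PU.1, AATCAC for GFI1, AANNGAAA for IRF, GGGNGNGG for KLF, TGTGGT for RUNX and AACNGNC for MYB.
Gfi1, chr5:107725806-107726055, minus strand: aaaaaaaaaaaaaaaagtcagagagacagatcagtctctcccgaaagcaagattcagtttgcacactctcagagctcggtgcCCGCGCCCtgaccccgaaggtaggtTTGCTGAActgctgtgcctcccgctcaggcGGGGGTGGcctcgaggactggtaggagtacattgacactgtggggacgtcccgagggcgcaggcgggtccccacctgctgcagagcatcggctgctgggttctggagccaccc
Id2, chr12:25096093-25096342, minus strand: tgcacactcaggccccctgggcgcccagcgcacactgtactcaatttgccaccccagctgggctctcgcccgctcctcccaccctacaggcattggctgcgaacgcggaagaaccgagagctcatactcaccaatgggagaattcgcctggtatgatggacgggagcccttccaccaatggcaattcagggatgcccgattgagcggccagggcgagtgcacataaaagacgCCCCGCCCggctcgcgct
Irf8, chr8:120736108-120736357, plus strand: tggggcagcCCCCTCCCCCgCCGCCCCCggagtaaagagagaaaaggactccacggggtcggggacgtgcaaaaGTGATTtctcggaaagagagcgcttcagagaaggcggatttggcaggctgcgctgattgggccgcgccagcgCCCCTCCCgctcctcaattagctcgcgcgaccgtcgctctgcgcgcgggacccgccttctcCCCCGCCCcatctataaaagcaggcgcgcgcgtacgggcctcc
Klf4, chr4:55532476-55532725, minus strand: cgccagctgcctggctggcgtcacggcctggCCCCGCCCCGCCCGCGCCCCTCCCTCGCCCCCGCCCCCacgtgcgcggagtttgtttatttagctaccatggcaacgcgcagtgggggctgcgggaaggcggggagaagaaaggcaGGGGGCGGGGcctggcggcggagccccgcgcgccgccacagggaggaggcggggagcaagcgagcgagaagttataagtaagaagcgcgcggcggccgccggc

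The Gfi1 window held 1 C/EBP motif and 2 KLF motifs. The Irf8 window held 1 GFI1 motif, in reverse (GTGATT), and 5 KLF motifs. The Klf4 window held 9 KLF motifs, several overlapping each other, and the Id2 window 1. Among 27025 promoters of the same length the C/EBP motif was in 9.55%, the GFI1 motif in 9.23% and the KLF motif in 45.6%. The PU.1, RUNX and MYB motifs, found in 10.4%, 14.2% and 27.6% of promoters, were in 0 of the 8 windows of these factors. The IRF motif, in 21.6% of promoters, was in 1 of the 8, that of Runx1. The C/EBP motif was in 1 of the 8, the GFI1 motif in 2 (Irf8 and Runx1, a gene that did not pass the test) and the KLF motif in 8 of 8. A match describes letters only, and no binding was measured.

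Other regulators of the same fates were read from 3 longer lists that include the 10 genes. Of 12 granulocytic factors tested, 2 rose and 1 fell in null against wild type (25% against 15.7% of all genes), with a median of 0.04 beside -0.04. Besides Gfi1 these were Cbfa2t3, a corepressor (0.38, SE 0.11), and Stat5a, a cytokine signal transducer (-0.40, SE 0.09). Cbfa2t3 did not pass without null replicates 1 or 2 (limma adjusted p = 0.114 and 0.0969) or wild-type replicates 2 or 3 (0.103 and 0.0722). Stat5a passed with any 1 array left out. With probe sets averaged Cbfa2t3 gave 0.0040 and Stat5a -0.32, with adjusted p of 0.987 and 0.0538. Against heterozygous cells limma called 1 of the 12, Gfi1 (8.33% beside 14.3% of all genes).

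Of 26 monocytic and dendritic factors tested, 3 rose and 5 fell in null against wild type (30.8% beside 15.7% of all genes, median 0.01). Jun (-3.68, SE 0.26) and Egr1 (-2.71, SE 0.40), immediate early genes that also promote macrophage fate, led the falls, and Runx3 (0.45, SE 0.11) rose. In heterozygous against wild-type cells 2 of the 26 changed, Jun (-3.33) and Egr1 (-2.74), both lower (7.69% beside 1.39% of all genes). Null against heterozygous gave -0.35 for Jun and 0.02 for Egr1, neither called. For these 2 genes wild type thus stood apart from both other genotypes. Against heterozygous cells 3 rose and 3 fell (23.1% beside 14.3%), among them Klf2 (1.18, SE 0.23) and Runx3 (0.52, SE 0.11) upward. Klf2 averaged 55.5 ± 5.52 in null, 19.2 ± 10.4 in heterozygous and 41.6 ± 8.11 in wild-type cells (SD, n = 3). Its difference in null against wild type, 0.34, was not called. With its probe sets averaged Runx3 gave 0.24 and 0.09 and did not pass (limma adjusted p = 0.197 and 0.696).

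Of 25 progenitor factors tested, 2 rose and 1 fell in null against wild type (12% beside 15.7% of all genes, median -0.01). Hoxa9, a homeobox gene of primitive progenitors, rose by 2.19 (SE 0.33), Hlf by 0.56 (SE 0.16), and Lyl1, a basic helix-loop-helix factor, fell by 0.39 (SE 0.09). Hlf did not pass without null replicates 1 or 2 (limma adjusted p = 0.104 and 0.0569) or wild-type replicates 1 or 3 (0.0872 and 0.0858). Against heterozygous cells Hoxa9 (2.49) and Mycn (1.07) rose and Lyl1 fell (-0.43), 3 of 25 (12% beside 14.3% of all genes). Mycn averaged 26.0 ± 7.72 in null, 6.15 ± 3.63 in heterozygous and 28.6 ± 15.4 in wild-type cells (SD, n = 3), so the low group was the heterozygous one, whose mean was below the filter signal of 8.49. Its difference in null against wild type was -0.045. Mycn did not pass without null replicate 2 (0.0623) or heterozygous replicate 3 (0.057). In heterozygous against wild type limma called 0 of the 25 progenitor and 0 of the 12 granulocytic factors.

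**Figure D5:**
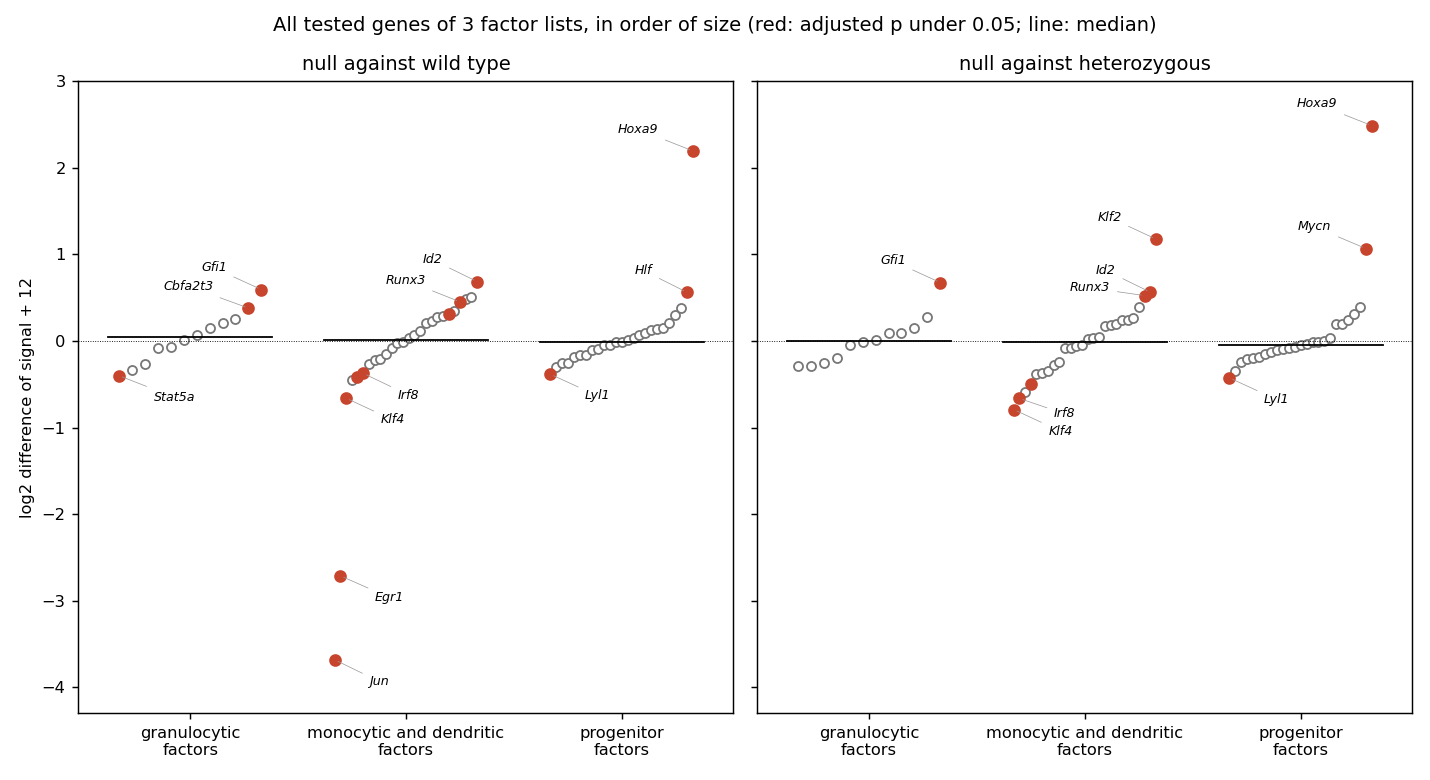
Log2 difference of every tested gene in the 3 factor lists, ordered by size, in null against wild-type (left) and null against heterozygous cells (right), red where the limma adjusted p was under 0.05, with the median as a line. Most genes lie near 0, Jun and Egr1 stand far below in the left panel (-3.68 and -2.71), and Hoxa9 stands highest in both (2.19 and 2.49).

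The ID and KLF families were also read, with Id2 and Klf4 of the 10 genes included in the counts. Of 14 genes tested, 2 rose and 2 fell in null against wild type (28.6% beside 15.7% of all genes, median 0.23 beside -0.04). Id2 and Klf3 (0.65, SE 0.12) rose and Klf9 (-0.82, SE 0.19) and Klf4 fell. Against heterozygous cells 4 rose, Klf2, Klf3 (0.56), Id2 and Klf6 (0.44), and Klf4 fell (35.7% beside 14.3% of all genes). Klf6 averaged 282.5 in null, 205.1 in heterozygous and 262.8 in wild-type cells, and was not called in null against wild type. Against heterozygous cells it did not pass without null replicate 3 (limma adjusted p = 0.053) or with its probe sets averaged (0.29, adjusted p = 0.0756). Averaging took the Klf3 differences to 0.069 and 0.033 (adjusted p = 0.775 and 0.906). In heterozygous against wild type limma called 0 of 14.

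Genes described as targets of the factors were read next. Of 17 tested genes described as repressed by GFI1, 4 rose and 2 fell in null against wild type (35.3% beside 15.7% of all genes, median 0.22). The list includes Id2 and Irf8, followed above as factors, and Hoxa9 and Egr1, named above in the longer lists. Its shares therefore partly repeat calls already given. The cell cycle inhibitor Cdkn1a (1.67, SE 0.14), Hoxa9 (2.19), the death-promoting Bcl2l11 (0.80, SE 0.12) and Id2 rose, and Egr1 and Irf8 fell. In null against heterozygous cells the same 4 rose, Cdkn1a by 1.41, Hoxa9 by 2.49, Bcl2l11 by 0.84 and Id2 by 0.56, and Irf8 fell (29.4% beside 14.3% of all genes). Gfi1 itself was higher in null cells in both comparisons. Of the 17, 1 fell in heterozygous against wild type, Egr1 (5.88% beside 1.39%).

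Of 25 tested genes described as activated by C/EBP proteins or PU.1, 6 rose and 5 fell in null against wild type. Their share was 44% beside 15.7% of all genes, with a median of -0.01. The integrin chain Itgb2 (1.24, SE 0.13) and the endotoxin receptor Cd14 (1.14, SE 0.15) rose, and the neutrophil genes Ltf (-2.09, SE 0.24) and Slpi (-1.27, SE 0.16) fell. Against heterozygous cells 6 rose and 2 fell (32% beside 14.3% of all genes), with Cd14 at 2.04, Itgb2 at 1.23 and Lcn2 at 2.07 upward and Slpi at -0.85. In heterozygous against wild type 1 rose and 4 fell (20% beside 1.39% of all genes), the latter Ltf (-1.97), Lcn2 (-1.78), Cd14 (-0.90) and Ngp (-1.86). Ngp missed the threshold without heterozygous replicate 2 (limma adjusted p = 0.0909). Cd14 averaged 12.3 ± 1.77 in heterozygous, 33.6 ± 4.92 in wild-type and 88.5 ± 8.21 in null cells (SD, n = 3).

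Of 17 tested genes described as activated by IRF8, KLF4 or PU.1 in monocytes, 3 rose and 1 fell in null against wild type. Their share was 23.5% beside 15.7% of all genes, with a median of 0.11. Cd14 and the protease Ctsc (0.74, SE 0.12) rose and passed without any single array. The chemokine receptor Ccr2 rose by 0.75 and the protease Ctss fell by 0.44 (limma adjusted p = 0.0459 and 0.0395). Ccr2 passed in 5 of 21 alternative settings and missed the threshold when any null array was left out (adjusted p = 0.0717, 0.0701 and 0.154), any heterozygous array (0.0597, 0.0654 and 0.0559) or wild-type replicate 2 (0.35, adjusted p = 0.0738). Ctss missed it without null replicate 3 (0.164), heterozygous replicates 1 or 2 (0.0514 and 0.0506) or wild-type replicates 1 or 3 (0.145 and 0.133). Against heterozygous cells 1 rose, Cd14, and 1 fell, Ly86 (-0.34), a partner of a Toll-like receptor relative (11.8% beside 14.3% of all genes). Ly86 passed in 10 of 21 alternative settings and missed the threshold when any null array was left out (limma adjusted p = 0.0576, 0.0542 and 0.194), any heterozygous array (0.134, 0.133 and 0.0771) or wild-type replicate 3 (0.0624). Ctsc also rose in heterozygous against wild-type cells, by 0.59, where Cd14 fell (11.8% beside 1.39%). That Ctsc call was lost when any heterozygous array was left out (limma adjusted p = 0.0593, 0.0943 and 0.14) or wild-type replicate 2 or 3 (0.0898 and 0.059).

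Of 17 tested genes described as targets of MYB or RUNX1, 2 rose and 1 fell in null against wild type. Their share was 17.6% beside 15.7% of all genes, with a median of -0.02. The detoxifying enzyme Gstm1 (0.56, SE 0.10) and the cytokine receptor chain Csf2rb (0.53, SE 0.10) rose and Bcl2 (-0.66, SE 0.14), a survival gene, fell. The same 3 were called against heterozygous cells, Gstm1 at 0.61, Csf2rb at 0.39 and Bcl2 at -0.48 (17.6% beside 14.3% of all genes), and 0 of 17 in heterozygous against wild type. Against heterozygous cells Csf2rb did not pass without null replicate 1 (limma adjusted p = 0.0594) or heterozygous replicates 1 or 2 (0.0513 and 0.0631). Bcl2 did not pass there without null replicates 1 or 3 (0.129 and 0.0745) or heterozygous replicates 1 or 2 (0.051 and 0.157).

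Markers of other cell types changed beside Irf8 and Klf4, in both directions. The summed signal of 8 dendritic markers was 157 to 208 on null, 319 to 455 on heterozygous and 288 to 435 on wild-type arrays, so null lay below both. The largest part of this fall was in H2-Aa, the brightest, with means of 52.1 in null, 178 in heterozygous and 157 in wild-type cells. Itgax went the other way, with means of 16.9, 13.7 and 13.3 in the same order, and was not called. Of these 8, limma called 2 lower against wild type and 0 higher, H2-Aa (-1.37, SE 0.22) and H2-Eb1 (-0.92, SE 0.17), which encode MHC class II chains, and the same 2 against heterozygous cells (-1.55 and -0.79). This is 25% in each comparison, beside 8.09% and 7.49% of all genes called lower. None of the 8 was listed at 0, and Siglech, a plasmacytoid marker, read 3.09 to 18.5 over the 9 arrays.

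The summed signal of 6 monocyte markers was 8938 to 9512 in null, 9100 to 10040 in heterozygous and 7026 to 9860 in wild-type cells. The sum overlapped between groups, but limma called 3 of the 6 in null against wild type (50% beside 15.7% of all genes). Fn1 (1.29) and Ccr2 (0.75) rose and Ms4a6c fell (-0.40). Against heterozygous cells 1 of 6 was called, Ms4a6c (-0.42), which is 16.7% beside 14.3% of all genes. Ms4a6c passed in 10 of 21 alternative settings in the first comparison and in 13 in the second. In the first it was lost when null replicate 1 or 3 was left out (limma adjusted p = 0.0888 and 0.129), any heterozygous array (0.051, 0.057 and 0.0514) or wild-type replicates 1 or 3 (0.157 and 0.121). In the second it was lost when null replicate 1 or 3 was left out (0.0834 and 0.118) or any heterozygous array (0.113, 0.0749 and 0.0804).

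The summed signal of 9 neutrophil markers was 2448 to 8848 in null, 2791 to 5064 in heterozygous and 4024 to 7494 in wild-type cells. It is carried by the bright S100a8 and S100a9 and overlapped between groups. Of the 8 tested, limma called 2 lower in null against wild type, which is 25% beside 15.7% of all genes. These were the granule protein genes Ltf (-2.09) and Ngp (-2.12), and the median was -0.26. Limma called 3 lower in heterozygous against wild type, Ltf, Lcn2 and Ngp, which is 37.5% beside 1.39% of all genes, with a median of -0.88. In null against heterozygous it called 1 higher, Lcn2 (2.07), which is 12.5% beside 14.3%.

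The summed signal of 6 mast cell and basophil markers was 5155 to 7255 in null, 3962 to 4640 in heterozygous and 4428 to 6636 in wild-type cells, so null lay above heterozygous. In null against heterozygous, where Irf8 and Klf4 also fell, limma called 3 of 6 higher, Cpa3 (0.56), Hdc (0.44) and Mcpt8 (0.61), which is 50% beside 14.3% of all genes. Hdc missed the threshold without null replicate 2 (limma adjusted p = 0.0535) or heterozygous replicates 1 or 3 (0.0755 and 0.0519). Mcpt8 missed it without null replicates 1 or 2 (0.0966 and 0.137) or heterozygous replicates 2 or 3 (0.124 and 0.121). Fcer1a, a chain of the IgE receptor, was called lower in null (-2.25) and in heterozygous cells (-3.11), each against wild type.

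Limma called 0 of 4 erythroid markers in each comparison. Of 3 stem cell markers tested it called 1, Hlf, in null against wild type (33.3% beside 15.7% of all genes). That call was lost when certain single arrays were left out, as given above. Of 5 B cell markers on the array 2 were tested, Ighm and Cd79b. Ighm fell by 1.42 against wild type and 1.17 against heterozygous cells (50% called, beside 15.7% and 14.3% of all genes). Cd79b was not called, with means of 149 in null, 167 in heterozygous and 166 in wild-type cells. Pax5 and Ebf1 read 1.23 to 13.5 and 2.24 to 9.78 on all arrays. With its probe sets averaged Ighm did not pass (limma adjusted p = 0.108 and 0.252). The part of these marker changes in the values of the 10 factors was not tested.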

How the data were processed

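RNA of EYFP-positive GMPs was measured on 9 Affymetrix arrays, 3 per genotype. The authors deposited linear intensity values, 1 per probe set. The submitters' processing notes name MAS5, without its settings. Each array had a 2% trimmed mean of 100, so a shift of most transcripts together would be hidden. Detection calls were not used here, and precision is limited by the number of arrays.

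Gene names came from the platform annotation, which gave 1 symbol to 34945 of 45101 probe sets. The brightest probe set by mean log2(signal + 12) stood for a gene, and genes at or above the 40th percentile of probe set means (a signal of 8.49) were tested, 12347 of 18193. Fold changes on this scale understate those of dim genes. All 9 arrays entered 1 fit in limma 3.58.1 (R 4.3.3; lmFit, then eBayes with trend), two-sided, with Benjamini-Hochberg adjustment over all genes tested and calls under 0.05. The same fit over 22365 probe sets gave the values of probe sets beyond the brightest. An exact permutation test of 3 against 3 arrays cannot go below 0.1. The fit was tested on simulated data. The 10 genes and all lists, compiled from general knowledge, were chosen with earlier results of these data known. Named are the 10 genes, Dicer1, and in each list and comparison at most the 4 called genes with the smallest p. Also named are the 3 genes most like each changed factor and the closest gene of each other factor. Markers beyond these and genes of the array checks were named after their values were seen. The IRF motif was shortened after a longer form had been found in none of the members' promoters. Alternatives changed the pseudocount, filter, normalization, variance prior, arrays, weights, probe set rule and replicate block, and left out each array in turn.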

Additional observations from a re-analysis of the deposited data

How the results depend on the processing

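Over 21 alternatives, the 10 factors kept direction and side of the threshold in 587 of 630 values, lost a call in 34, gained 1 in 2 and changed sign in 7. The sign changes were in differences that had not passed. With probe sets averaged, Cebpd gave -0.080 in null against wild type and Cebpb -0.18 in null against heterozygous. Leaving out 1 array gave Cebpd -0.017 to 0.17 (negative without wild-type replicate 2) and Runx1 -0.11 to 0.047 (positive without wild-type replicate 3 and, at 0.0021, without null replicate 2) in null against wild type. In heterozygous against wild type it gave Cebpa -0.22 to 0.018 (positive without wild-type replicate 3) and Klf4 -0.10 to 0.32 (negative without wild-type replicate 2). The cause was not tested. Counts of changed genes, 1937, 172 and 1770 in null against wild type, heterozygous against wild type and null against heterozygous, fell with no intensity trend to 1290, 83 and 1103. In heterozygous against wild type the count was 112 with no filter, where more genes are tested, and 86 with probe sets averaged. Leaving out 1 array gave 1258 to 1938, 99 to 169 and 1033 to 1897 in the same order, the lowest without null replicate 3, heterozygous replicate 2 and heterozygous replicate 1. With the replicate number as a block the counts were 2111, 201 and 1934 and no call among the 10 factors changed. Same-numbered arrays deviated together at r of 0.0041 to 0.112, -0.0272 to 0.0375 and -0.0206 to 0.143. Of 6 arrays, 5, 3 and 3 correlated best with their own number. The numbers were not taken as pairs because the labels do not say that a number stands for a shared donor or day. Whether same-numbered arrays share one was not tested. Signal over background is unknown here, which limits dim probe sets such as those of Id2.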
